A study of Mus musculus with 8 samples.

Results

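The genes described here are 47 components of mammalian DNA repair, chosen by name as a list, with earlier results of these data known, among 22911 genes that the arrays name. Cells use separate repair pathways for separate lesions. Homologous recombination copies a sister chromatid to mend a broken chromosome, the Fanconi anaemia pathway opens crosslinked strands, mismatch repair corrects replication errors, excision repair removes damaged bases or bulky lesions, and end joining ligates broken ends directly. Several homologous recombination and Fanconi genes are known to be expressed mainly in dividing cells, since their pathway needs a replicated chromosome, whereas much of excision repair and end joining runs throughout the cell cycle. The 47 genes were therefore read as 15 for homologous recombination and the processing of DNA ends, 6 for the Fanconi pathway, 3 for mismatch repair, 5 for nucleotide excision repair, 7 for base excision and single-strand break repair, 5 for end joining, 5 for damage signalling and 1 for direct reversal.

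RNA was measured in TEC71, an immortalized mouse cell line from medullary thymic epithelium, on 8 single-colour Agilent arrays. The 3 control arrays carried RNA of TEC71 cells transfected with Cas9n, a Cas9 that nicks only a single strand, and a single guide RNA. The other 5 arrays carried RNA of cells with a knock-in T1211A mutation in Gtf2i, the gene of the transcription factor TFII-I, 3 of them from clone 1 and 2 from clone 3. The knock-in genotype is thus read from clone 1 and clone 3 alone, and each knock-in group is a single clone. Whether the controls were a clone or a pool and whether the arrays of a group came from separate cultures is not stated in the labels. The p-values then measure only the spread between these arrays, which may be technical.

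All 8 arrays lay on 1 slide and were scanned together, with row 1 holding the 3 controls and a single clone 1 array, its first, and row 2 the other 4 arrays. Of the 56605 probes, 55.3% to 59.3% cleared background on a given array, no spot was saturated, and the small number of arrays limits how precise each value is. On the first clone 1 array the brightest spike-in reached 2797, against 17164 to 30390 elsewhere. A level is the log2 signal after subtracting the array's 75th percentile, and a difference is in log2 units, clone minus control. Of 10 thymic epithelial markers, 7 were above background on all 8 arrays, among them Epcam, Krt5, Krt8 and Krt14, while Ccl21a and Fezf2 were above it on none and Aire on 3; the summed log2 level of the 10 ran from 8.50 to 8.89 in the controls, 8.29 to 8.49 in clone 1 and 8.39 to 8.54 in clone 3. Within that list Epcam averaged 2.62 in the controls, 1.52 in clone 1 and 1.61 in clone 3, and Krt5 6.86, 5.54 and 5.73, while Krt18 averaged 6.45, 6.45 and 6.41. Of 5 blood markers Cd3e, Cd4 and Itgam were above background on all 8 arrays, Ptprc on 1 and Cd8a on none, with sums of 2.83 to 3.42, 2.89 to 3.44 and 3.30 to 3.35 log2 in the same order. Of 7 fibroblast markers Col1a2 and Pdgfra were above it on all 8, and the summed level of that list ran from -0.06 to 0.27 log2 in the controls, from -1.14 to -0.69 in clone 1 and from -1.10 to -0.89 in clone 3. Of 4 endothelial markers Pecam1 alone was above background on all 8 arrays, with sums of -2.21 to -1.76, -2.43 to -1.98 and -2.09 to -2.07 log2. The part of these marker shifts in the repair gene differences was not tested. The level of Gtf2i was 4.41 ± 0.05 for the controls (SD, n = 3), 3.96 ± 0.07 for clone 1 (SD, n = 3) and 3.82 ± 0.03 for clone 3 (SD, n = 2); these probes cannot report a single-base change and so do not check the genotype.

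The comparison of each clone with the control asks which repair transcripts change where the mutation is present. All 47 genes were above background on all 8 arrays. Limma's test across all 25353 features, with Benjamini-Hochberg adjustment and a threshold of 0.05, called 22 of the 47 lower and 3 higher in clone 1, where 31.1% of all features were called, 16.5% lower and 14.7% higher. In clone 3 it called 19 lower and 4 higher, where 30.2% of all features were called, 17% lower and 13.3% higher. In both clones 17 fell and 3 rose, and 27 did not pass in both. Over all features 23.5% were called in both the same way, 12.2% lower and 11.3% higher. Among the 14719 tested genes with a symbol, 12.1% were called lower in both and 15.4% higher. The 17 that fell were Xrcc2, Rad52, Rad54l, Brca1, Brca2, Palb2, Exo1, Fanca, Fancc, Fanci, Brip1, Msh6, Ogg1, Fen1, Lig3, Xrcc5 and Atr, and the 3 that rose were Xrcc4, H2ax and Mgmt. Both comparisons use the same 3 control arrays. In RNA of whole cultures, fewer cells of a type and less RNA per cell cannot be told apart.

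The median difference of the 47 genes was -0.47 log2 for clone 1 and -0.32 log2 for clone 3, where the median over all tested features was -0.05 and -0.04 log2. In clone 1, 35 of the 47 differences lay below 0 (74.5%), and in clone 3 36 did (76.6%), beside 55.1% and 53.5% of all features. For tested genes with a symbol the medians were 0.0 and 0.02 log2, with 49.9% and 47.9% below 0. Array by array, the median of the 47 against the control mean was -0.44, -0.41 and -0.42 log2 on the clone 1 arrays and -0.24 and -0.38 log2 on the clone 3 arrays, and -0.02, 0.03 and 0.02 log2 on the controls. No clone array overlapped the controls in this median. The control values lie near 0 partly by construction, since the mean of the controls is subtracted, so their range understates their spread. Over all tested features the same median ran from -0.10 to 0.02 log2 on the clone arrays and from -0.03 to 0.03 log2 on the controls.

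**Figure D1:**
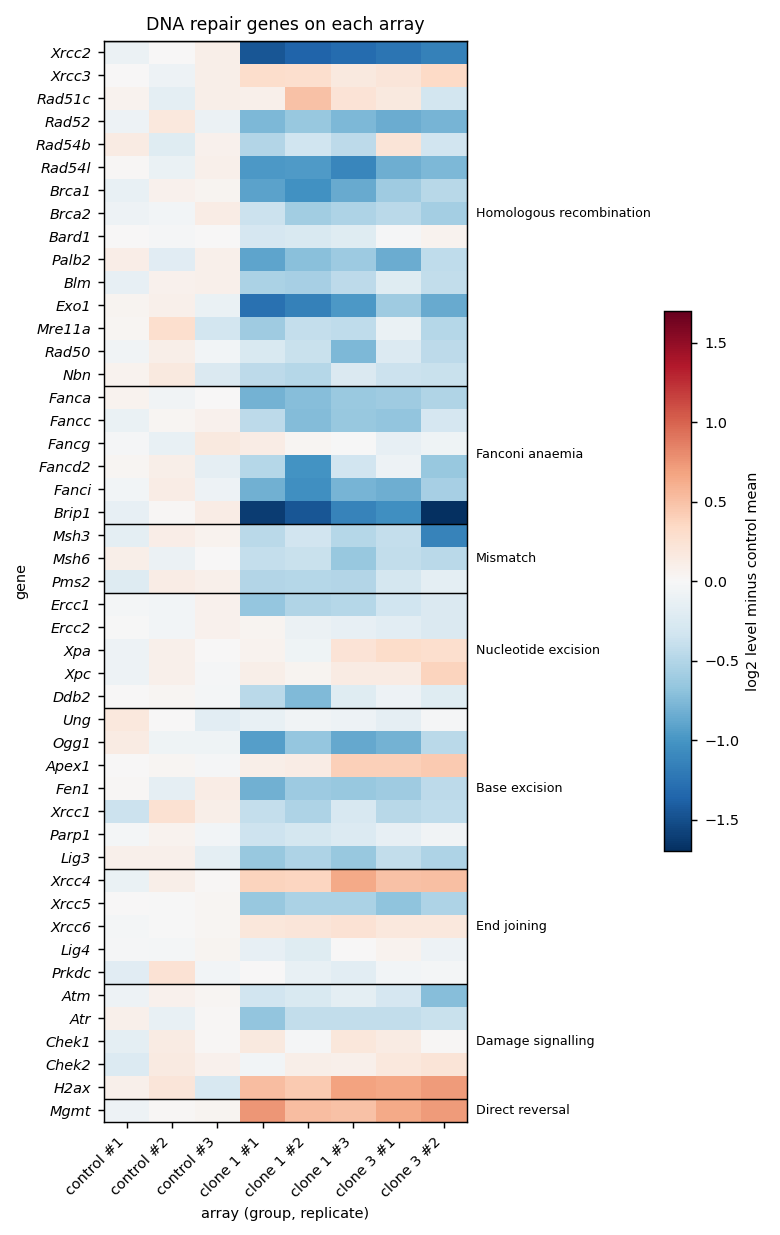
Heat map of the 47 DNA repair genes (rows, grouped by pathway) on the 8 arrays (columns), with colour for the log2 level minus the mean of the 3 controls. Blue rows, lower on the 5 knock-in arrays, prevail in homologous recombination, the Fanconi pathway, mismatch repair and base excision repair, with Brip1 and Xrcc2 the darkest, while Xrcc4, H2ax and Mgmt are red on all 5.

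Array row moves with genotype here, because all 3 controls lie in row 1. With the row as a block the median of the 47 was -0.44 log2 for clone 1 and -0.31 log2 for clone 3, and all 20 genes called in both clones kept their sign in each clone. Of those 20, 15 still passed in clone 1 but 3 in clone 3, namely Xrcc2, Brip1 and Mgmt. That fit called 16 of the 47 in clone 1 and 3 in clone 3, and 17.2% and 8.16% of all features; in both clones it called 3 of the 47 and 7.76% of all features. The blocked differences rest on the first clone 1 array, the one with the dim spike-in, since no other knock-in array shares a row with the controls. For all 47 genes the blocked clone 1 difference equals that of this array from the controls. In clone 1 the kept sign of the 20 genes was therefore fixed beforehand. Their clone 1 arrays all lay beyond the controls on the side of the call. Of the 5 genes called in clone 1 only, Ercc1 still passed with the block (adjusted p = 0.0199), and Blm (0.071), Pms2 (0.105), Ddb2 (0.197) and Rad50 (0.418, at -0.27 log2) did not. No array of clone 3 shares a row with a control, so for clone 3 a within-row value cannot be had. Scaled by the median of each array in place of its 75th percentile, 13 of the 47 were called in both clones, 10 lower and 3 higher. Brca1, Brca2, Fancc, Msh6, Fen1, Lig3 and Atr were no longer called in both. Over all features that scaling took the lower calls from 4180 to 3448 in clone 1 and from 4307 to 3343 in clone 3. Higher calls went from 3716 to 3622 and from 3362 to 3687. For the fits with an array left out that follow, shares of all features are not given here. Without the first clone 3 array 11 were called in both and 12 in clone 3, and Brca1, Palb2, Fancc, Fanci, Msh6, Ogg1, Fen1, Lig3, Xrcc4 and Atr were no longer called in both; without the second 14 were called in clone 3, and without the first control array 15.

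**Figure D2:**
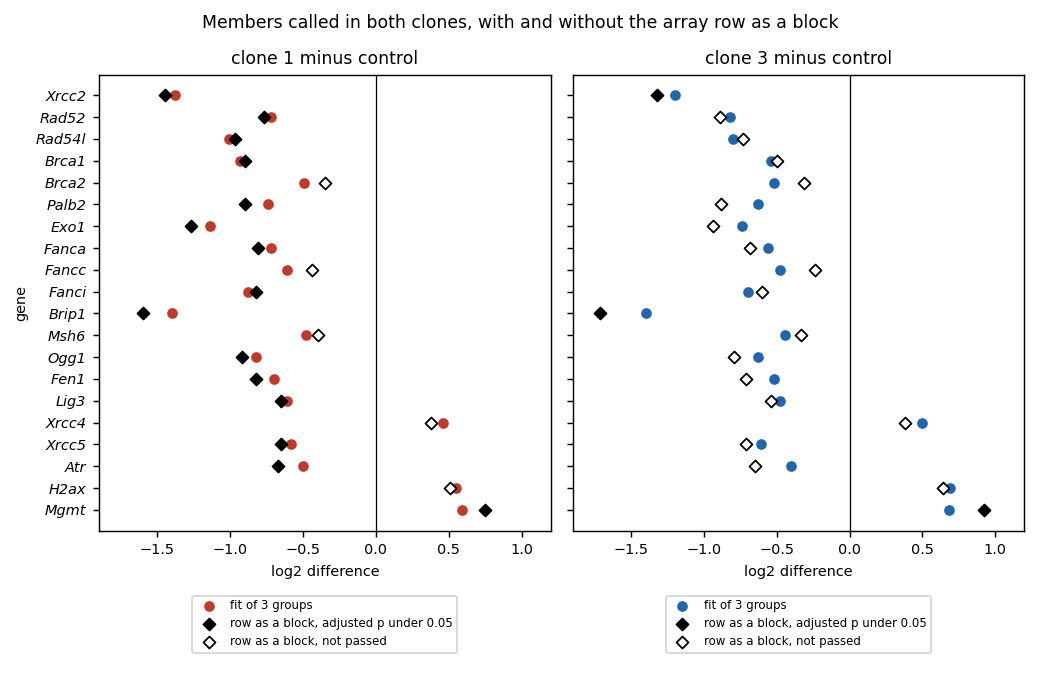
Log2 differences from the control of the 20 genes called in both clones, for clone 1 (left) and clone 3 (right), from the fit of 3 groups (circles) and with the array row as a block (diamonds, filled where the adjusted p is under 0.05). All diamonds lie on the same side of 0 as their circles, which in clone 1 was fixed beforehand. In clone 3 the diamonds of Xrcc2, Brip1 and Mgmt are the filled ones.

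Because many of the 47 genes moved together, their promoters were read for 4 short sequences known from cell cycle promoters and from TFII-I work, searched on both strands in RefSeq windows of 250 bases before to 50 bases after the gene start (GRCm38.p6). Windows were matched for 37 of the 47 genes, 5 of them with 2 windows. E2F sites, bound by the factors that switch on S-phase genes, were searched as TTTCCCGC, TTTCGCGC, TTTGCCGC or TTTGGCGC. They stood in the windows of 8 of the 37 genes (21.6%) of 4.34% of the 11717 tested genes with a window and of 2.6% of all 27025 genes with one. The 8 were Brca2 and Msh6, which fell in both clones, Msh3, which fell in clone 3, and Bard1, Rad51c, Fancg, Xrcc6 and Chek2, which passed in neither. By call, 2 of the 15 genes with a window that fell in both clones held such a word and 6 of the 20 that passed in 1 clone or in neither. The stretches of 100 bases that follow show this word in capitals in genes that fell and genes that did not pass, each 5′ to 3′ on the strand of its gene and upstream of the start.
Brca2 (chr5:150522407-150522506, plus strand; fell): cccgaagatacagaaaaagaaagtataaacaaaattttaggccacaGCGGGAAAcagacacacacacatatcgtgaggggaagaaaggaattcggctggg
Msh3 (chr13:92355152-92355251, minus strand; fell in clone 3): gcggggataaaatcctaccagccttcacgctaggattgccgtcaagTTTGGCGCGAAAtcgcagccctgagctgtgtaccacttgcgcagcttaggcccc
Bard1 (chr1:71103123-71103222, minus strand; not passed): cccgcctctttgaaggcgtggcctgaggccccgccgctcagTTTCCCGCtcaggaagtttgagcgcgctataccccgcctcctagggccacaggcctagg
Fancg (chr4:43010302-43010401, minus strand; not passed): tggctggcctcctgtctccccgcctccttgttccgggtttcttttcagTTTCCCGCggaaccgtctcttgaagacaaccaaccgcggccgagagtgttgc
Xrcc6 (chr15:82016269-82016368, plus strand; not passed): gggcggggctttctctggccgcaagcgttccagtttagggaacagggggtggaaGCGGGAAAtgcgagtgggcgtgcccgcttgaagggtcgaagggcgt
In Msh3 the run of capitals is a pair of overlapping words, TTTGGCGC and, on the other strand, TTTCGCGC.

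CCAAT boxes, bound by NF-Y, stood in the windows of 20 of the 37 genes (54.1%), of 42.9% of tested genes and of 41.1% of all genes with a window. Of the 15 genes that fell in both clones 9 held one (60%): Rad54l, Brca1, Palb2, Fanca, Fancc, Brip1, Msh6, Ogg1 and Xrcc5. So did 11 of the 20 that passed in 1 clone or in neither (55%), a similar share, and 0 of the 2 that rose in both. Brip1 and Rad54l, with the largest falls in clone 1 among the genes with a window, and Fanca, with 2 boxes near the start, are printed with CCAAT or its reverse complement in capitals.
Brip1 (chr11:86201194-86201293, minus strand): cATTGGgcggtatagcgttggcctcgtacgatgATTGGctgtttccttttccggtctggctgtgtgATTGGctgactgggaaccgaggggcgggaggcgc
Rad54l (chr4:116123690-116123789, minus strand): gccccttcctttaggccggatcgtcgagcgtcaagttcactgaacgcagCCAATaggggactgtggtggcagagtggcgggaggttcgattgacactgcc
Fanca (chr8:123318577-123318676, minus strand): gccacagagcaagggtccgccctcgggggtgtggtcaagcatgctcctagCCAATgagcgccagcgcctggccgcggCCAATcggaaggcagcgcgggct
The CHR element TTTGAA stood in 2 of the 37 (5.41%, against 15.5% of tested and 20.2% of all genes) and the E-box CACGTG, a word that TFII-I is known to bind, in 5 (13.5%, near the 11% of tested genes, and 8.09% of all): Apex1, Fen1, Parp1, Lig3 and Xrcc5. Median G and C content was 60% in the windows of these genes and 52.7% in all windows. A match is a description of these letters and not of a bound factor.

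Of the 15 homologous recombination genes, 9 were called lower in clone 1 and 7 in clone 3, 7 of them in both, and 0 were called higher. Over all features 16.5% were called lower in clone 1, 17% in clone 3 and 12.2% in both. The median difference of the 15 was -0.49 log2 for clone 1 and -0.37 log2 for clone 3. Among the strand exchange factors, Xrcc2, a paralog of the recombinase that helps load the recombinase on single-stranded DNA, read -0.30, -0.20 and -0.10 on the control arrays, -1.65, -1.56 and -1.51 on the clone 1 arrays and -1.44 and -1.35 on the clone 3 arrays. All knock-in arrays lay below all controls by more than 1 log2. The difference was -1.38 log2 in clone 1 (limma adjusted p = 2.84e-05, SE 0.10, 2.6-fold) and -1.20 log2 in clone 3 (adjusted p = 1.50e-04, SE 0.12, 2.3-fold), and it passed with row as a block (adjusted p = 8.65e-04 and 0.00853). The other 2 such paralogs among the 47 did not pass: Xrcc3 differed by 0.25 and 0.27 log2 (adjusted p = 0.113 and 0.117) and Rad51c by 0.27 and -0.08 log2 (adjusted p = 0.267 and 0.782).

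Rad54l, the translocase that remodels chromatin during strand invasion, read -0.15, -0.28 and -0.08 in the controls, -1.14, -1.13 and -1.28 in clone 1 and -1.0 and -0.94 in clone 3. It fell by 1.01 log2 in clone 1 (adjusted p = 1.77e-04, SE 0.10) and by 0.80 log2 in clone 3 (adjusted p = 0.00141, SE 0.12), and with row as a block its adjusted p was 0.00619 and 0.0764. Rad54b, its relative, differed by -0.43 log2 for clone 1 and -0.05 log2 for clone 3 and passed in neither (adjusted p = 0.0796 and 0.862); its first clone 3 array, at 0.09, lay above all 3 controls. Rad52, which anneals single strands, read 0.16, 0.42 and 0.14 in the controls, -0.52, -0.40 and -0.52 in clone 1 and -0.61 and -0.55 in clone 3, with no overlap. Its falls of 0.72 log2 (adjusted p = 0.00172, SE 0.11) and 0.82 log2 (adjusted p = 0.00183, SE 0.13) passed in both clones, and with row as a block its adjusted p was 0.0214 in clone 1 and 0.0548 in clone 3.

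The BRCA genes act as mediators that bring the recombinase to the break. Brca1 read 1.19, 1.38 and 1.35 in the controls, 0.40, 0.28 and 0.46 in clone 1 and 0.70 and 0.84 in clone 3. The clone 3 arrays lay between the other groups and overlapped neither. Brca1 fell by 0.93 log2 in clone 1 (adjusted p = 3.62e-04, SE 0.11) and by 0.54 log2 in clone 3 (adjusted p = 0.0112, SE 0.12). A dimmer Brca1 probe gave 0.04 and 0.29 log2, so the Brca1 probes disagree, and with the mean of the probes Brca1 was no longer called in both clones. Bard1, the obligate partner of BRCA1, read 1.60, 1.58 and 1.61 in the controls, 1.32, 1.34 and 1.39 in clone 1 and 1.58 and 1.66 in clone 3, and passed in neither clone (-0.25 log2, adjusted p = 0.0794, and 0.02 log2, adjusted p = 0.89). Its clone 1 arrays lay below the controls, while its clone 3 arrays overlapped them.

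Brca2, the main loader of the recombinase, read 1.98, 2.03 and 2.19 in the controls, 1.71, 1.48 and 1.54 in clone 1 and 1.61 and 1.49 in clone 3. It fell by 0.49 log2 (adjusted p = 0.0118, SE 0.11) and 0.52 log2 (adjusted p = 0.0162, SE 0.13), and its other 2 probes gave -0.78 and -0.76 log2 in clone 1 and -0.45 and -0.64 log2 in clone 3. With the row as a block the Brca2 difference did not pass (adjusted p = 0.172 and 0.418). Palb2, which links BRCA1 to BRCA2, read -1.38, -1.68 and -1.41 in the controls, -2.39, -2.20 and -2.11 in clone 1 and -2.33 and -1.92 in clone 3. Its arrays did not overlap the controls, and it fell by 0.74 log2 (adjusted p = 0.00635, SE 0.15) and 0.63 log2 (adjusted p = 0.0224, SE 0.17).

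Nucleases and helicases prepare the broken end. Exo1, an exonuclease that resects ends and also acts in mismatch repair, read 3.33, 3.37 and 3.18 in the controls, 2.02, 2.14 and 2.31 in clone 1 and 2.68 and 2.43 in clone 3. Its 3 groups did not overlap, with clone 3 between the others. Exo1 fell by 1.14 log2 in clone 1 (adjusted p = 2.40e-04, SE 0.12) and by 0.74 log2 in clone 3 (adjusted p = 0.00463, SE 0.14), and with row as a block its adjusted p in clone 3 was 0.0501. Blm, a RecQ helicase, read 1.56, 1.77 and 1.78 in the controls, 1.16, 1.13 and 1.25 in clone 1 and 1.49 and 1.28 in clone 3, and fell in clone 1 (-0.52 log2, adjusted p = 0.00892, SE 0.11) but did not pass in clone 3 (-0.32 log2, adjusted p = 0.0964). The 3 subunits of the MRN complex, which senses breaks, all had differences below 0: Rad50 fell in clone 1 (-0.47 log2, adjusted p = 0.0406, and 0.418 with row as a block; clone 3 -0.34 log2, adjusted p = 0.16), Mre11a differed by -0.48 and -0.30 log2 and Nbn by -0.39 and -0.37 log2, none of these 4 values passing. A dimmer Rad50 probe gave -0.01 and -0.11 log2.

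Of the 6 Fanconi genes 4 fell in both clones and 0 rose, with a median of -0.67 log2 for clone 1 and -0.52 log2 for clone 3. Over all features 12.2% fell and 11.3% rose in both. Brip1, the helicase FANCJ that binds BRCA1, read -0.42, -0.26 and -0.16 in the controls, -1.89, -1.74 and -1.42 in clone 1 and -1.32 and -2.05 in clone 3. Its clone 3 arrays were 0.73 log2 apart, yet both lay below all controls. The difference was -1.40 log2 in either clone (adjusted p = 0.00112, SE 0.20, and SE 0.23, adjusted p = 0.00231; 2.64-fold), its other probe gave -1.31 and -1.13 log2, and it passed with row as a block (adjusted p = 0.00962 and 0.0374).

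The core complex of the Fanconi pathway attaches ubiquitin to the FANCD2 and FANCI pair. Fanca, a core subunit, read 3.01, 2.89 and 2.96 in the controls, 2.15, 2.22 and 2.32 in clone 1 and 2.35 and 2.44 in clone 3. It fell by 0.72 log2 (adjusted p = 9.18e-04, SE 0.10) and 0.56 log2 (adjusted p = 0.00652, SE 0.11). A dimmer Fanca probe gave -0.22 and -0.07 log2, and its clone 3 arrays lay within the range of the controls. Fancc, another core subunit, read -0.99, -0.85 and -0.81 in the controls, -1.33, -1.62 and -1.52 in clone 1 and -1.55 and -1.17 in clone 3, and fell by 0.61 log2 (adjusted p = 0.0105, SE 0.14) and 0.48 log2 (adjusted p = 0.0454, SE 0.15). A dimmer Fancc probe, above background on all 8 arrays, gave -1.47 and -1.30 log2. With the row as a block Fancc did not pass (adjusted p = 0.159 and 0.623). Fancg, also of the core, differed by 0.04 and -0.11 log2 and passed in neither clone (adjusted p = 0.81 and 0.561). A dimmer Fancg probe gave 0.55 and 0.32 log2, with all knock-in arrays above all controls, and another gave -0.02 and 0.13 log2, so the Fancg probes disagree.

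Fanci, the substrate partner, read 1.11, 1.28 and 1.06 in the controls, 0.33, 0.11 and 0.36 in clone 1 and 0.32 and 0.58 in clone 3. It fell by 0.88 log2 (adjusted p = 0.00104, SE 0.13) and 0.70 log2 (adjusted p = 0.00654, SE 0.14). All 5 knock-in arrays lay below the controls. Fancd2 read -2.01, -1.94 and -2.19 in the controls, -2.53, -3.06 and -2.37 in clone 1 and -2.13 and -2.69 in clone 3, a wider spread, and its differences of -0.61 log2 (SE 0.21) and -0.36 log2 (SE 0.23) did not pass (adjusted p = 0.0571 and 0.286).

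**Figure D3:**
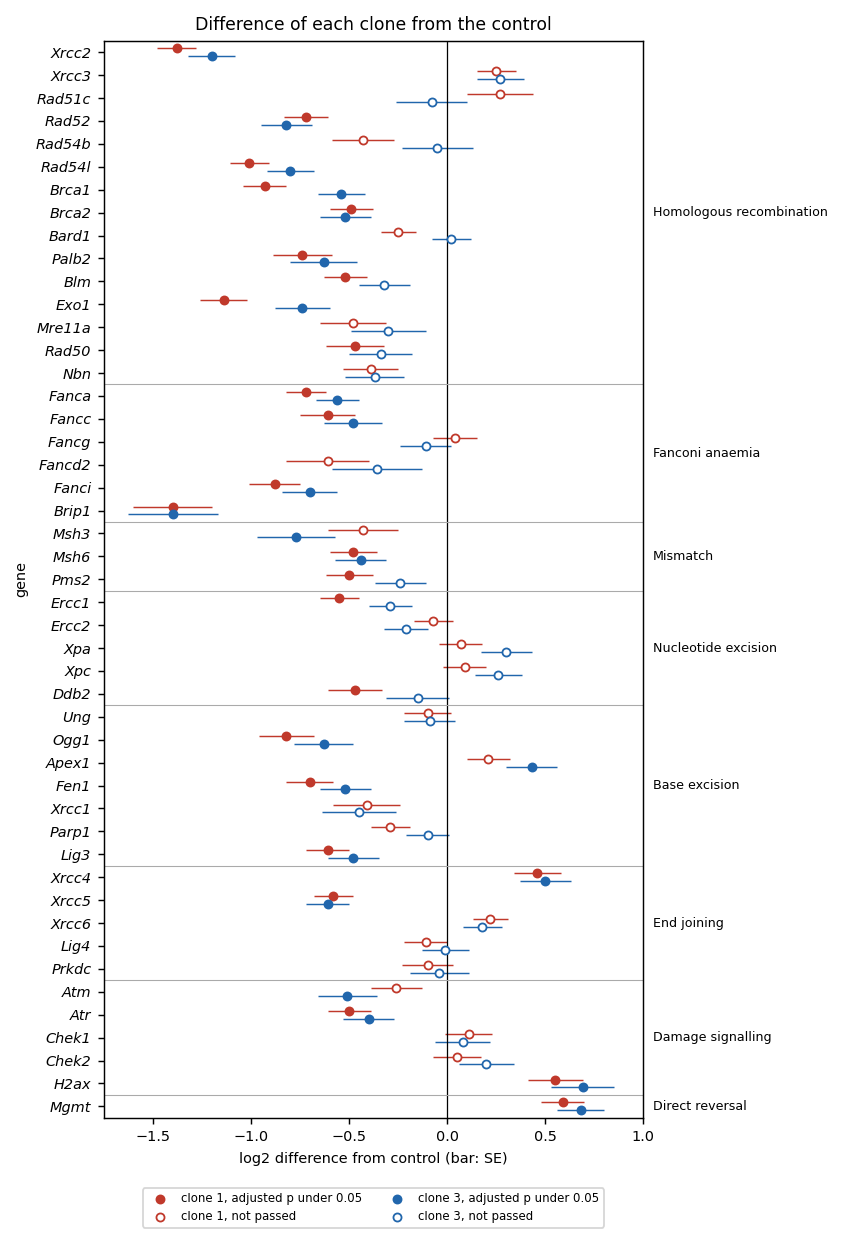
Log2 difference from the control of each of the 47 genes in clone 1 (red) and clone 3 (blue), with the standard error as a bar and filled points where the adjusted p is under 0.05. The points farthest to the left are those of Brip1 (-1.40 in both) and Xrcc2 (-1.38 and -1.20). None of the 5 nucleotide excision genes has a filled point in clone 3, where 30.2% of all features were called.

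Mismatch repair was covered by 3 genes, of which Msh6 fell in both clones, where 12.2% of all features fell. Msh6, the subunit that reads single mispairs, gave 4.58, 4.38 and 4.48 in the controls, 4.08, 4.10 and 3.83 in clone 1 and 4.06 and 4.02 in clone 3. It fell by 0.48 log2 (adjusted p = 0.0145, SE 0.12) and 0.44 log2 (adjusted p = 0.0332, SE 0.13), and did not pass with row as a block (adjusted p = 0.157 and 0.437). Msh3, the alternative subunit that reads small loops, gave 2.03, 2.30 and 2.25 in the controls, 1.73, 1.86 and 1.7 in clone 1 and 1.78 and 1.06 in clone 3. It fell in clone 3 (-0.77 log2, adjusted p = 0.0207, SE 0.20) with its second array far below its first, and did not pass in clone 1 (-0.43 log2, adjusted p = 0.109, SE 0.18); its other 3 probes gave -1.27, -0.96 and -0.53 log2 in clone 3. Without the second clone 3 array the Msh3 difference was -0.42 log2 (adjusted p = 0.125). Pms2, which nicks the strand to be corrected, read 0.97, 1.32 and 1.28 in the controls, 0.69, 0.70 and 0.69 in clone 1 and 0.89 and 1.02 in clone 3. It fell in clone 1 (-0.50 log2, adjusted p = 0.0141, SE 0.12) and did not pass in clone 3 (-0.24 log2, adjusted p = 0.229).

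Nucleotide excision repair, which removes bulky lesions such as those of ultraviolet light, had 0 of 5 genes called in both clones and 0 called in clone 3, where 2 had an unadjusted p under 0.05. Over all features 23.5% were called in both clones the same way and 30.2% in clone 3. With 5 genes, a count of 0 is not shown to differ from these shares. The median difference of the 5 was -0.07 log2 for clone 1 and -0.15 log2 for clone 3. Ercc1, a subunit of a nuclease of this pathway, read 4.58, 4.57 and 4.68 in the controls, 3.95, 4.10 and 4.12 in clone 1 and 4.27 and 4.37 in clone 3. It fell in clone 1 (-0.55 log2, adjusted p = 0.00386, SE 0.10) and did not pass in clone 3 (-0.29 log2, adjusted p = 0.0877), where its arrays lay between the other groups. Ddb2, a sensor of ultraviolet damage, fell in clone 1 too (-0.47 log2, adjusted p = 0.0363; clone 3 -0.15 log2, adjusted p = 0.52). The helicase gene Ercc2 (-0.07 and -0.21 log2), the scaffold gene Xpa (0.07 and 0.30 log2) and the sensor gene Xpc (0.09 and 0.26 log2) passed in neither.

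Base excision and single-strand break repair had 3 of 7 genes that fell in both clones, beside 12.2% of all features, with medians of -0.41 and -0.45 log2. Ogg1, the glycosylase for oxidized guanine, read 1.58, 1.37 and 1.37 in the controls, 0.51, 0.78 and 0.57 in clone 1 and 0.63 and 0.98 in clone 3. It fell by 0.82 log2 (adjusted p = 0.00231, SE 0.14) and 0.63 log2 (adjusted p = 0.0145, SE 0.15), while the uracil glycosylase gene Ung differed by -0.10 and -0.09 log2 and passed in neither (adjusted p = 0.598 and 0.651). Fen1, the flap nuclease of long-patch repair and of lagging strand synthesis, read 5.21, 5.04 and 5.32 in the controls, 4.37, 4.57 and 4.54 in clone 1 and 4.58 and 4.75 in clone 3. Fen1 fell by 0.70 log2 (adjusted p = 0.00276, SE 0.12) and 0.52 log2 (adjusted p = 0.0192, SE 0.13), and no knock-in array reached the lowest control.

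The ligase gene Lig3 read 2.44, 2.45 and 2.19 in the controls, 1.71, 1.84 and 1.71 in clone 1 and 1.94 and 1.83 in clone 3, and fell by 0.61 log2 (adjusted p = 0.00417, SE 0.11) and 0.48 log2 (adjusted p = 0.0226, SE 0.13). Its scaffold partner Xrcc1 had differences of similar size, -0.41 log2 (SE 0.17) and -0.45 log2 (SE 0.19), that did not pass (adjusted p = 0.103 and 0.107); the controls of Xrcc1 were spread from 3.56 to 4.19. Parp1, the break sensor that makes poly(ADP-ribose), differed by -0.29 and -0.10 log2 and passed in neither (adjusted p = 0.0535 and 0.56). Apex1, the abasic site nuclease, read 3.94, 3.97 and 3.92 in the controls, 4.04, 4.06 and 4.35 in clone 1 and 4.35 and 4.39 in clone 3, all above the controls, and passed as higher in clone 3 (0.43 log2, adjusted p = 0.0337; clone 1 0.21 log2, adjusted p = 0.211). Its other 2 probes gave 0.57 and 0.36 log2 in clone 3, and with row as a block it stood at 0.26 log2 (adjusted p = 0.511). With the row as a block Ogg1, Fen1 and Lig3 passed in clone 1 (adjusted p = 0.0187, 0.0163 and 0.0388) and not in clone 3 (adjusted p = 0.116, 0.103 and 0.202).

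In end joining, which needs no template, 1 of 5 genes fell and 1 rose in both clones, with medians of -0.10 and -0.01 log2. Over all features 12.2% fell and 11.3% rose in both. With 5 genes, 1 in either direction is not shown to differ from these shares. Ku70 and Ku80 form the ring that binds broken ends. Xrcc5, which encodes Ku80, read 2.44, 2.43 and 2.47 in the controls, 1.80, 1.90 and 1.90 in clone 1 and 1.75 and 1.92 in clone 3, and fell by 0.58 log2 (adjusted p = 0.00275, SE 0.10) and 0.61 log2 (adjusted p = 0.00416, SE 0.11). Xrcc6, which encodes Ku70, had all knock-in arrays above the controls, at 4.27 to 4.34 against 4.06 to 4.12, but its differences of 0.22 and 0.18 log2 did not pass (adjusted p = 0.108 and 0.216). Xrcc4, the scaffold of the final ligase, read -0.21, 0.00 and -0.08 in the controls, 0.28, 0.27 and 0.54 in clone 1 and 0.40 and 0.41 in clone 3. It rose by 0.46 log2 (adjusted p = 0.0171, SE 0.12) and 0.50 log2 (adjusted p = 0.02, SE 0.13), and did not pass with row as a block (adjusted p = 0.179 and 0.362). Lig4, the ligase it holds, differed by -0.11 and -0.01 log2 and Prkdc, the kinase that Ku recruits, by -0.10 and -0.04 log2, neither passing.

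In damage signalling Atr, the kinase for stalled forks, read 2.86, 2.66 and 2.80 in the controls, 2.11, 2.36 and 2.36 in clone 1 and 2.36 and 2.40 in clone 3. It fell by 0.50 log2 (adjusted p = 0.0111, SE 0.11) and 0.40 log2 (adjusted p = 0.0468, SE 0.13). The Atr call in clone 3 was lost with median scaling (adjusted p = 0.157), with array weights and with the row block (adjusted p = 0.0938). It was also lost whichever control array was left out. In clone 1 Atr passed with the row block (adjusted p = 0.0218). Atm, the kinase for broken ends, read 0.36, 0.52 and 0.48 in the controls, 0.13, 0.19 and 0.28 in clone 1 and 0.17 and -0.27 in clone 3, and fell in clone 3 (-0.51 log2, adjusted p = 0.0334, SE 0.15) without passing in clone 1 (-0.26 log2, adjusted p = 0.19). The Atm call was lost with normexp, with median scaling and with the row block (adjusted p = 0.214), and without the second clone 3 array the difference was -0.28 log2 (adjusted p = 0.226). The kinases downstream of them, Chek1 (0.11 and 0.08 log2) and Chek2 (0.05 and 0.20 log2), passed in neither clone.

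H2ax, the histone variant phosphorylated around breaks, read 3.37, 3.49 and 3.02 in the controls, 3.81, 3.74 and 3.97 in clone 1 and 3.95 and 4.02 in clone 3. It rose by 0.55 log2 (adjusted p = 0.0189, SE 0.14) and 0.69 log2 (adjusted p = 0.0118, SE 0.16), and did not pass with row as a block (adjusted p = 0.148 and 0.221). Mgmt, which takes alkyl groups off guanine and repairs it directly, read 2.59, 2.69 and 2.72 in the controls, 3.42, 3.19 and 3.17 in clone 1 and 3.31 and 3.39 in clone 3. All 5 knock-in arrays of either gene lay above all controls. Mgmt rose by 0.59 log2 (adjusted p = 0.00402, SE 0.11, 1.51-fold) and 0.68 log2 (adjusted p = 0.00382, SE 0.12, 1.61-fold), and with the row as a block it still passed (adjusted p = 0.0124 and 0.0281).

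**Figure D4:**
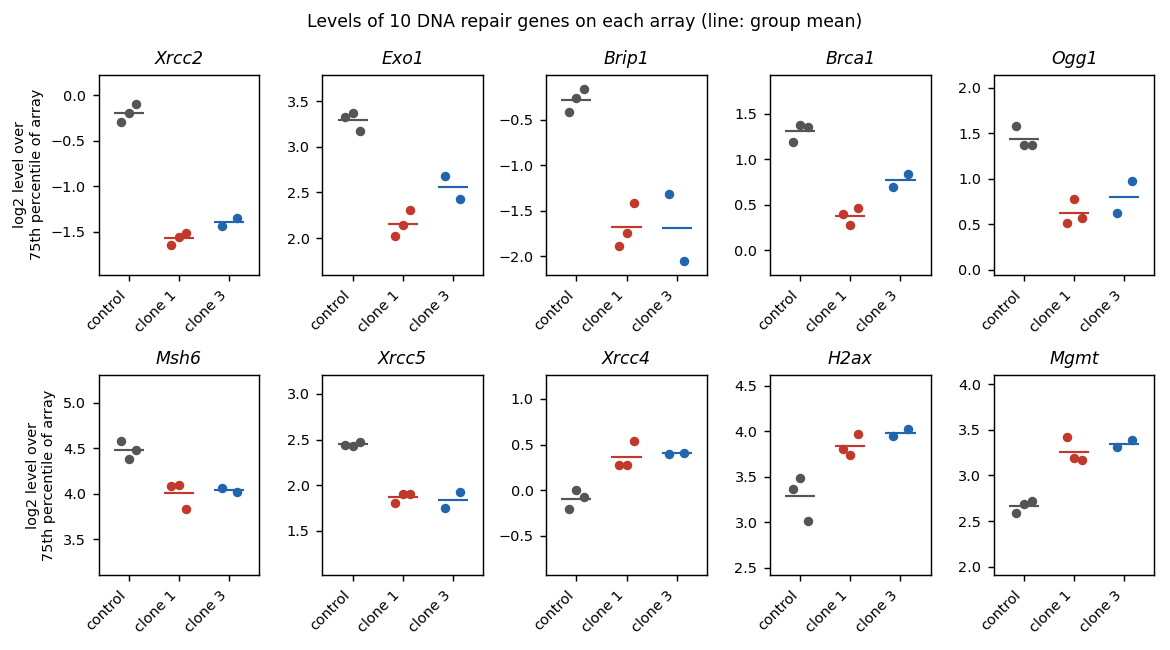
Levels of 10 repair genes on each array, as log2 signal over the 75th percentile of the array, with a point per array and a line at the group mean; each panel spans 2.2 log2 units. Xrcc2, Exo1, Brip1, Brca1, Ogg1, Msh6 and Xrcc5 are lower on all 5 knock-in arrays than on any control, and Xrcc4, H2ax and Mgmt are higher.

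The clones were also set against each other; the differences do not use the controls' levels, but the fit takes its spread from all 8 arrays. Limma called 0 of the 47 genes different between clone 3 and clone 1, and 0.0749% of all features (0.0316% lower and 0.0434% higher); without adjustment 4 had a p under 0.05, namely Brca1 (0.39 log2, adjusted p = 0.331, SE 0.12), Exo1 (0.40 log2, adjusted p = 0.381, SE 0.14), Bard1 (0.27 log2, adjusted p = 0.417) and Ercc1 (0.26 log2, adjusted p = 0.461). The differences ran from -0.35 to 0.40 log2 with a median of 0.13 log2, where the median of all features was 0.00. Of the 47, 25.5% lay lower in clone 3 than in clone 1, against 49.5% of all features. Within row 2, which holds 2 arrays of each clone, the differences ran from -0.45 to 0.40 log2 and 0 passed, with 1 at an unadjusted p under 0.05. A fit of the clone arrays alone also called 0. The 5 genes called in clone 1 only (Blm, Rad50, Pms2, Ercc1 and Ddb2) and the 3 called in clone 3 only (Msh3, Apex1 and Atm) are therefore not shown to differ between the clones.

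Where a called gene had a second probe above background on all 8 arrays, the probes could be set side by side. That held for 8 of the 20 genes called in both clones, and in 7 of them, Rad52, Brca2, Palb2, Fanca, Fancc, Brip1 and Lig3, every such probe had the sign of the call in both clones, though not its size: in clone 3 the other probe stood at -0.07 log2 for Fanca and -0.11 log2 for Palb2. Brca1 differed in sign.

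Other repair genes were taken from a further list of 74. In both clones 14 fell, 8 rose and 52 did not pass in both, with medians of -0.16 and -0.09 log2. The share that rose is near the 11.3% of all features, of which 12.2% fell. It is below the 15.4% of the 14719 tested genes with a symbol, of which 12.1% fell. The RecQ helicase gene Recql fell by 1.76 and 1.37 log2 (adjusted p = 3.47e-05 and 3.44e-04), the Holliday junction resolvase gene Gen1 by 1.35 and 1.17 log2 (adjusted p = 5.42e-04 and 0.00234), the recombination cofactor gene Rad51ap1 by 0.94 and 0.86 log2 (adjusted p = 0.00166 and 0.00496) and the Fanconi ligase gene Fancl by 1.00 and 0.85 log2 (adjusted p = 1.02e-04 and 5.93e-04). Mlh3, a MutL homolog, rose by 1.39 and 1.44 log2 (adjusted p = 5.44e-05 and 1.09e-04). Of the base excision genes Neil1, a glycosylase for oxidized bases, rose by 0.69 and 0.86 log2 and Polb, the repair polymerase, by 0.56 and 0.63 log2. Ercc8, of transcription-coupled repair, rose by 0.86 and 0.59 log2. With the row as a block 3 of this list fell and 2 rose in both clones, no larger a share than the 7.76% of all features.

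Genes of dividing cells were read from lists of their own. Of 34 replication genes 16 fell and 0 rose in both clones, with medians of -0.63 log2 for clone 1 and -0.34 log2 for clone 3, among them Tyms (-1.22 and -1.13 log2), Orc1 (-1.21 and -1.14 log2), E2f2 (-1.09 and -0.96 log2) and Pold1 (-0.85 and -0.73 log2). Clone by clone, 25 of the 34 were called lower in clone 1 and 16 in clone 3, beside 16.5% and 17% of all features. Over all features 12.2% fell in both clones. With the row as a block 7.76% of all features were called in both the same way. With the row as a block 5 of the 34 fell in both, with median scaling 9, and 9 to 10 without the control array 2 or 3 or either clone 3 array. Of 26 mitotic genes 2 fell in both clones, Ccnb2 (-0.85 and -0.63 log2) and Mki67 (-0.46 and -0.44 log2), and Tpx2 rose (0.72 and 0.78 log2). Both shares are below those of all features (12.2% lower, 11.3% higher). In clone 1 taken by itself, 11 of the 26 were called lower and 1 higher, beside 16.5% and 14.7% of all features. In clone 3 the counts were 2 lower and 3 higher, beside 17% and 13.3%. The mitotic medians were -0.31 log2 for clone 1 and -0.10 log2 for clone 3. Among 20 targets of p53, 4 rose in both clones (Gdf15, Pmaip1, Trp53inp1 and Cdkn1a) and 2 fell (Fas and Plk2). Over all features 11.3% rose and 12.2% fell in both, and 15.4% of tested genes with a symbol rose. The share of p53 targets that fell was near that of all features. The other 14 targets were not called in both, and the medians of the list were 0.25 log2 for clone 1 and 0.26 log2 for clone 3. Cdkn1a, the inhibitor of cyclin-dependent kinases, rose by 0.75 log2 (adjusted p = 0.00124) and 0.54 log2 (adjusted p = 0.0119). Array by array the replication median ran from -0.71 to -0.51 log2 in clone 1 and stood at -0.35 and -0.36 log2 in clone 3. The part of these transcripts in the repair gene differences was not tested.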

How the data were processed

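Per the submitters' processing notes, the arrays were read with Agilent's Feature Extraction, version 11.5.11; the authors deposited its processed signal, a background-corrected intensity on a linear scale. Spots with an outlier flag, 114 to 242 on each array, were dropped. Each intensity was taken as log2 after division by the array's 75th percentile, and repeated spots of one probe were combined by their mean. RefSeq accessions (GRCm38.p6) named 32994 of 56605 probes, and each gene was read from its brightest probe. The array files use an earlier build, and none of their coordinates is printed. A feature was tested where all arrays of 1 or more groups had it well above background (25353 features), by limma 3.58.1 in R 4.3.3, in a single fit of the 3 groups with 5 residual degrees of freedom. The scripts were tested on simulated data. The 47 genes, their pathways and the further lists were chosen with earlier results of these data known. Full values are given for genes called in both clones, or in 1 clone with a difference of at least 0.5 log2, and up to 4 genes per direction are named from each further list; array values of Rad54b, Bard1, Fancd2, Apex1, Xrcc1 and Xrcc6 were added after they were seen. Alternatives were normexp (offset 50) on the deposited median intensity, other scalings, filters, probe means, variance models, array weights, the array row as a block and each array left out. A further blood marker is not reported here.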

Additional observations from a re-analysis of the deposited data

How the results depend on the processing

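No call of the 47 genes changed sign under an alternative run. The 20 calls in both clones became 13 with median scaling, 9 without the filter, 9 at a threshold of 0.01 and 3 with the array row as a block, and leaving out each array in turn gave 11 to 20. The 25 calls in clone 1 became 16 with the row as a block, 16 at 0.01 and 10 within row 1, where 1 clone 1 array stands against the controls and the spread is theirs alone. The 23 calls in clone 3 became 15 with median scaling, 10 without the filter, 3 with the row as a block, 9 at 0.01 and 12 to 23 with an array left out. The median in clone 1 was -0.37 log2 with normexp and -0.47 to -0.42 log2 with an array left out. Calls in both clones of the other repair list (22) became 12 without the filter, 5 with the row block, 11 at 0.01 and 13 to 20 with an array left out. Those of the replication list (16) became 9 with median scaling, without the filter and at 0.01, 5 with the row block and 9 to 15 with an array left out. The 3 mitotic calls became 7 with normexp, 8 with a variance trend and 0 with the row block, and the 6 of p53 targets became 10 and 3 with the last 2 settings. Calls over all features also move between settings and are not set beside these counts. The causes were not tested. No paired analysis was possible because the labels give no replicate numbers that pair arrays across groups.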
